A study of Mus musculus with 8 samples.

Results

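Of 40770 chromatin regions that were accessible in at least 1 of 8 ATAC-seq libraries of BV2 mouse microglial cells, 849 (2.08%) were called in all 4 hypoxic libraries and in no normoxic library. The regions were made by merging overlapping peaks of the 8 deposited lists on chromosomes 1 to 19 and X, and 1 shared bp was enough to assign a region to a library. Members were thus chosen by the peak calls. With each list reduced to its 9903 strongest peaks, 212 of 19780 regions (1.07%) met the rule. The full lists gave 1815 without co-culture hypoxia replicate 2, 1402 without co-culture normoxia replicate 1 and 1276 without co-culture normoxia replicate 2, since fewer libraries make the rule easier to meet. The mirror image, a region called in every normoxic library but never in hypoxia, occurred 8 times (0.0196%). It needs calls in the 2 shortest lists (monoculture normoxia, 13326 and 9903 peaks) and none in hypoxic lists of 21625 to 29647 peaks. The part of list length in the gap between these counts was not tested. The presence in hypoxia and the absence in normoxia are therefore descriptions and were not tested. The peak names carry the code V12 in all 4 normoxic lists and V22 in all 4 hypoxic lists. What the codes stand for is not given in the sources used here, and whatever they mark cannot be told apart from oxygen.

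ATAC-seq uses the transposase Tn5 to insert adapters where DNA is not covered by nucleosomes. BV2 is an immortalised mouse microglial line and GL261 is a mouse glioma line. BV2 cells in monoculture, or in co-culture after seeding on a layer of GL261 cells, were kept for 16 h at 21% oxygen (normoxia) or below 0.1% oxygen (hypoxia), with 2 biological replicates in each of the 4 groups. All cells, controls included, were fixed in formaldehyde and sorted as CD45+ or GFP+ before the transposition. The labels do not say which gate was used for which library, and BV2 represents microglia as 1 line. The samples are bulk, so a wider opening in every cell and opening in a larger share of cells cannot be told apart.

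When oxygen is low, the alpha subunits of the hypoxia-inducible factors (HIF) are no longer hydroxylated and degraded, and they pair with ARNT to bind the hypoxia response element, whose core reads ACGTG or GCGTG. HIF targets include the glucose transporter Slc2a1, glycolytic enzymes and Vegfa. Regulatory DNA away from promoters, such as enhancers, is often open in a cell type-specific or stimulus-specific way, and in macrophages and microglia much of it is bound by PU.1, CEBP and AP-1 factors, the last being dimers of Fos and Jun proteins that recognise TGANTCA, where N is any base.

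No genome sequence was used here, and sequence was read only where a member overlapped a promoter window of RefSeq (GRCm38.p6), which runs from 250 bases before to 50 bases after a start site. The 6 stretches below are the 250 bases before the start site, written 5′ to 3′ on the strand of the gene. They belong to the first 6 protein-coding promoters, in order of the member's rank, whose start lies in a member and whose stretch holds ACGTG or TGANTCA. Capitals mark ACGTG or TGANTCA on either strand, so that CACGT is ACGTG read on the other strand and CACGTG holds it on both.
Rusc1: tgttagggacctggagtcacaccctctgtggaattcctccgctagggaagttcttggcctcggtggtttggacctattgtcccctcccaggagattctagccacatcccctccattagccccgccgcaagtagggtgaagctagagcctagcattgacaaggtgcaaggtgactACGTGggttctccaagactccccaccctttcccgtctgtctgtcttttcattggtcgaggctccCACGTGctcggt
Uba7: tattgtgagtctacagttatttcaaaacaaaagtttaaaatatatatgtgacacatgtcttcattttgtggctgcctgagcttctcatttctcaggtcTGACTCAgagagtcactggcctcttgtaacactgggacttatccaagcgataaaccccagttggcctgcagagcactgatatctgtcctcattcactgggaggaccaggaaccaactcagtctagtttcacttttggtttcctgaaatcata
Rps16: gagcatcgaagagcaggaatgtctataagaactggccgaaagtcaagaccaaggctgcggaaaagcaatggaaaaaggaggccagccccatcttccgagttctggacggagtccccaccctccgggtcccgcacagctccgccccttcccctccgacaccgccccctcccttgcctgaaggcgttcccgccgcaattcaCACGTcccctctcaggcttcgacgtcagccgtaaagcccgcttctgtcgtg
Natd1: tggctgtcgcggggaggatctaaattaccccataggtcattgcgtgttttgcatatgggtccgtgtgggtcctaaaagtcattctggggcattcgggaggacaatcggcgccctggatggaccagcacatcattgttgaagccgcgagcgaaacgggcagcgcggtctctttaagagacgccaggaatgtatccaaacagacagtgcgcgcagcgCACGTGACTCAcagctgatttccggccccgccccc
Ypel4: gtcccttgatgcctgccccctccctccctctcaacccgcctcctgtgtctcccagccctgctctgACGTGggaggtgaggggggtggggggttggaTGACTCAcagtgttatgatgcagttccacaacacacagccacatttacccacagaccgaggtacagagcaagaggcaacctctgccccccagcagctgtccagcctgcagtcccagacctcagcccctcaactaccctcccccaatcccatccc
Lias: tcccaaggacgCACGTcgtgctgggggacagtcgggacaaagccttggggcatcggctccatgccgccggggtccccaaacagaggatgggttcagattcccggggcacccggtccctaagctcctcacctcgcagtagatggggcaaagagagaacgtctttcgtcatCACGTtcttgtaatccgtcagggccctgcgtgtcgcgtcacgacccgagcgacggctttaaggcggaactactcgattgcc
Rusc1 (chr3:89090032-89090281, minus strand) held ACGTG 76 bases before the start and a palindromic CACGTG ending close to it. Natd1 (chr11:60913793-60914042, minus strand) held CACGTG overlapping TGACTCA, a pair of motifs that share bases within 35 bases of the start. Ypel4 (chr2:84733954-84734203, plus strand) held both motifs apart, 185 and 154 bases before the start. Uba7 (chr9:107975317-107975566, plus strand), which encodes the activating enzyme for the interferon-induced modifier ISG15, held only TGACTCA, at 152 bases. Rps16 (chr7:28350439-28350688, plus strand), a ribosomal protein gene, held 1 ACGTG at 51 bases, and Lias (chr5:65391247-65391496, plus strand), which encodes lipoic acid synthetase, held 2. A match shows only that these letters are present.

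The libraries differed in depth, and that bears on every statement about absence. The lists held from 9910 peaks (monoculture normoxia replicate 2) to 29658 (co-culture hypoxia replicate 1), and the background coverage solved from the lists ran from 0.758 (monoculture normoxia replicate 1) to 1.45 fragments per position. The fewest fragments at a called summit were 6 to 8, with medians of 18 to 30. Of 10 microglia and macrophage markers, those with a peak in the gene or within 1 kb of it numbered 5 and 4 in normoxic monoculture, 8 and 8 in hypoxic monoculture, 8 and 8 in normoxic co-culture and 9 and 7 in hypoxic co-culture. Ptprc, Csf1r, Cx3cr1 and Fcgr3 had one in all 8 libraries and Aif1 in none. Of 10 glioma and glial markers the numbers were 1 and 0, 3 and 4, 5 and 3, and 8 and 5, in the same order. In monoculture both marker lists were therefore higher in hypoxia, the direction of the rule. Olig2 and Egfr had no peak anywhere. Sox2 and Pdgfra had peaks in 3 co-culture libraries each and in no monoculture library, whereas S100b, Vim and Cd44 had one in both hypoxic monoculture libraries, Cspg4 in 1 of them and Cd44 in 1 normoxic monoculture library. The part of these differences in the members' calls, and that of GL261 chromatin in the co-culture results, were not tested.

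Members ranked near the middle of their lists. The rule used the calls of these same peaks, so their ranks are a description with no test. The strength of a peak is given as a percentile, its place when the peaks of its own list are ordered by the authors' −log10 p, with 100 as the strongest. The median percentile of the 849 members was 46.8 and 47.5 in monoculture hypoxia replicates 1 and 2, and 50.9 and 36.5 in co-culture hypoxia replicates 1 and 2. Co-culture hypoxia replicate 2 stood below the other 3, which lay close together. Only 16, 26, 21 and 5 members, in the same order, were among the strongest 10% of their list, and 18 had a percentile above 75 in all 4. The members' summits held a median of 25, 27, 29 and 21 fragments, and members made up 3.48%, 3.23%, 2.88% and 3.93% of the 4 lists.

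**Figure D1:**
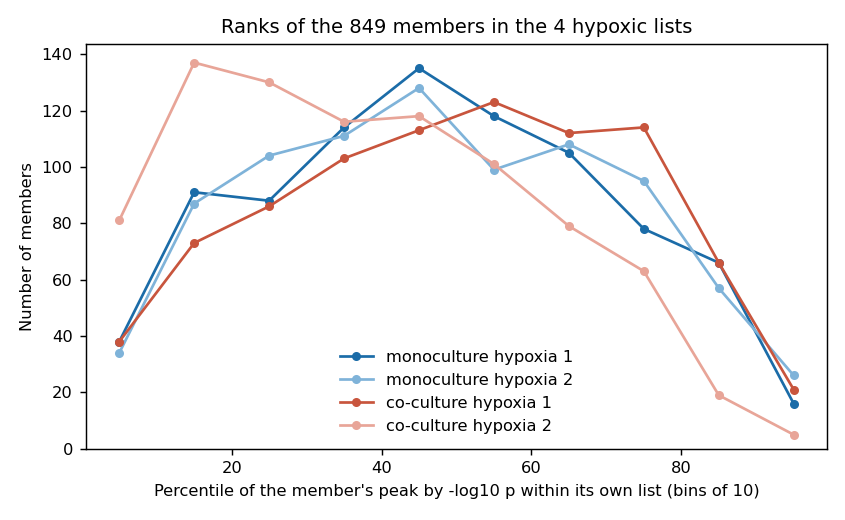
Number of the 849 members in each bin of 10 percentiles, with the percentile of a member's peak within its own list on the x axis and 1 line per hypoxic library. Co-culture hypoxia replicate 2 has its largest counts at low percentiles (median 36.5), while the other 3 libraries have theirs in the middle (medians 46.8 to 50.9).

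Replicates ranked members more alike than cultures did. Over the 849 members, the Spearman correlation of percentiles was 0.742 between the monoculture replicates and 0.706 between the co-culture replicates, against 0.508 to 0.627 for the 4 pairs across cultures. Members are not replicates and the lists differ in depth, so these values are a description of the lists with no test. The mean of the median percentiles was 47.2 ± 0.492 (SD, n = 2) in monoculture hypoxia and 43.7 ± 10.2 (SD, n = 2) in co-culture hypoxia. The difference of −3.52 was smaller than the spread between the co-culture replicates, and the 2 groups overlapped (two-sided exact permutation test, p = 1, where the smallest possible p is 0.333). It was −10.6 without co-culture hypoxia replicate 1, −0.966 without replicate 2 of that group, −1.42 and −0.720 without monoculture hypoxia replicates 1 and 2, −1.42 and −1.56 without co-culture normoxia replicates 1 and 2, and −7.03 in equal-number lists.

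The number of fragments that each normoxic library would hold at a member as open as in hypoxia was then estimated. Scaling the hypoxic fragments at each member by background coverage predicted medians of 14.0 and 19.2 fragments in monoculture normoxia and 19.9 and 25.6 in co-culture normoxia. The medians needed to pass the lists' thresholds were 8, 9, 9 and 10. The predicted value was at or above the needed one in all 4 normoxic libraries at 841 of the 849 members (99.1%), and it was over 2 times the needed one at 283 and 464 members in monoculture normoxia and at 477 and 645 in co-culture normoxia. These counts take no account of counting spread, and they start from fragments in the libraries where members had to be called, so they describe the lists and leave the part of depth in the absences not tested. They also depend on the scaling. When the factor was taken instead from fragments at the regions called in all 8 libraries, an alternative chosen after seeing the data, the predicted medians in monoculture normoxia fell to 12.5 and 13.1. Then 799 and 752 members reached the needed value in those 2 libraries, all 849 did in each co-culture normoxia library, and 750 (88.3%) did in all 4. The second factor was 0.468 to 0.568 for monoculture normoxia replicate 2 and 0.789 to 0.967 for co-culture normoxia replicate 1, although their background coverage was close (1.03 and 1.07), so it does not follow coverage alone.

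**Figure D2:**
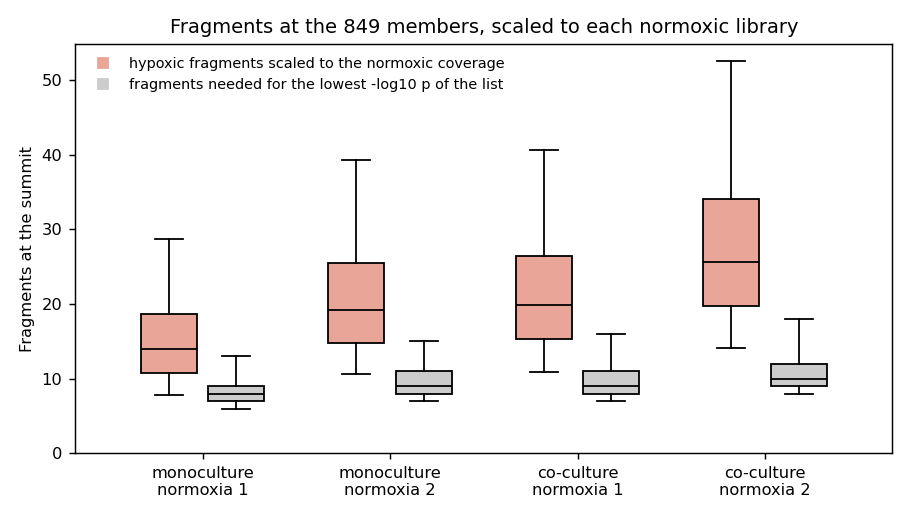
Fragments at the summits of the 849 members, predicted for each normoxic library by scaling the hypoxic fragments by background coverage (red), beside the fragments needed to reach the lowest −log10 p of that list (grey). Boxes show quartiles with the median, whiskers the 5th and 95th percentiles; the predicted medians run from 14.0 to 25.6 and the needed medians from 8 to 10.

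Members lay away from gene ends. Within 1 kb of either end of a RefSeq gene lay 122 members (14.4%; exact 95% binomial interval 12.1% to 16.9%, which treats members as independent), against 30.6% of all 40770 regions, 57.1% of the 6372 regions called in all 8 libraries, and 37.9% of the 805 regions called in every co-culture but in no monoculture library. The share of regions that the rule took was 0.977% at gene ends and 2.57% farther away. Regions called in just 1 library had a share close to that of the members, 15.5% of 10896, but the other 2829 regions called in exactly 4 libraries had 30.0%. These sets also differ in peak strength, and the part of strength in the shares was not tested.

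**Figure D3:**
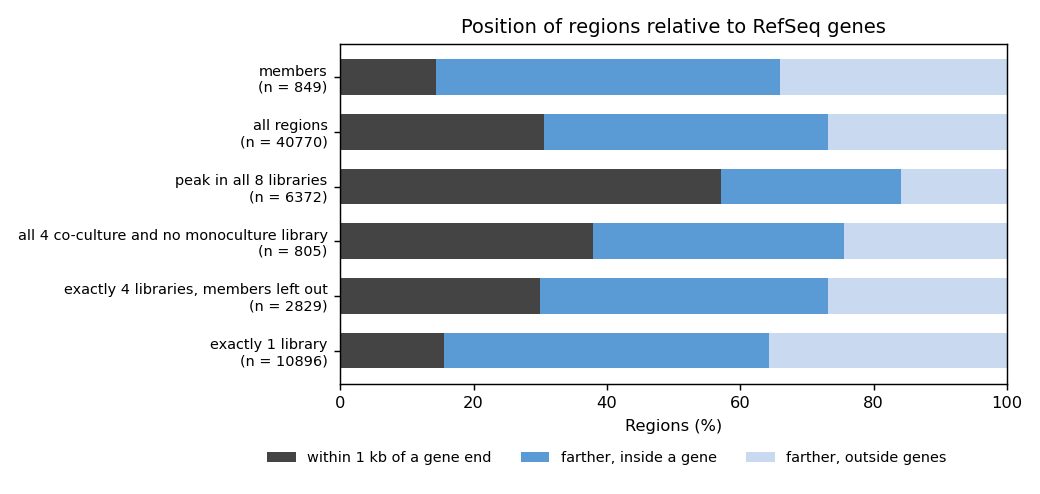
Share of regions (%) within 1 kb of a RefSeq gene end (dark), farther away inside a gene (blue) and farther away outside genes (pale), for the members and 5 other sets of regions. Members have 14.4% at gene ends, 51.6% farther away inside genes and 34.0% outside, while regions called in all 8 libraries have 57.1% at gene ends.

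Inside genes lay 63.1% of members, against 70.6% of all regions, and the gene table does not separate introns from exons. Of the 849, 438 (51.6%) lay inside a gene and farther than 1 kb from a gene end, against 42.6% of all regions. Outside genes and that far away lay 289 (34.0%), against 26.8%. The median distance to a gene end was 10.4 kb, against 5.39 kb for all regions. At gene ends lay 25 of the 213 members (11.7%) with the highest lowest percentile over the 4 lists, 47 of the 213 (22.1%) with the lowest, and 50 of the 423 (11.8%) between them. The weakest members thus had the largest share, and the other 2 sets were alike; the difference was not tested.

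The median width of a member was 611 bp (quartiles 514 and 751), and 845 of 849 held a single peak in every hypoxic library. The 4 hypoxic summits of a member fell within a median of 84 bp of each other, and within 100 bp in 489 (57.6%), close to the 77 bp and 63.5% of regions called in all 8 libraries. In the regions called only in co-culture, the summits of the 4 libraries spread over a median of 136 bp, and 35.3% lay within 100 bp. Another member lay within 10 kb of 18 members (2.12%) and within 50 kb of 85 (10.0%). The median distance to the nearest region with a normoxic peak was 14.7 kb, and 12 members (1.41%) had such a region within 500 bp. By chromosome, members made up between 0.915% of regions (X, 12 of 1312) and 2.68% (chromosome 1, 80 of 2988).

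The strongest member, at the highest lowest percentile, was chr3:90323103-90323794, 29.3 kb downstream of a start of Gatad2b, which encodes a subunit of the NuRD chromatin remodelling complex. Its percentiles were 96.9 and 92.9 in monoculture and 96.3 and 92.2 in co-culture hypoxia, with 95, 77, 113 and 79 fragments. The groups overlapped, and the 4 summits lay within 5 bp. The member in Kcnab2, a potassium channel beta subunit (chr4:152410935-152411562, 37.7 kb downstream of a start), had percentiles of 98.4 and 95.5 in monoculture and 95.6 and 83.8 in co-culture, from 117, 93, 106 and 55 fragments. Its first value was the highest of any member in that library, and its value in co-culture replicate 2 lay apart from the other 3. The members in Cab39 (an adaptor of the LKB1 kinase), Adamtsl5 (a secreted matrix protein), St14 (the membrane protease matriptase) and the non-coding gene Gm46154, 43.9 kb from the macrophage scavenger receptor gene Marco, had percentiles between 84.1 and 95.4 in every library.

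Of the 20 strongest, 6 lay outside genes, at 3.90 to 150.3 kb from the nearest protein-coding gene. The member 22.0 kb from Ier3, an immediate-early gene (chr17:35798980-35799695), had percentiles of 90.3, 81.5, 89.2 and 87.6 in monoculture replicates 1 and 2 and co-culture replicates 1 and 2. The groups overlapped. The member 99.2 kb from Smad1, a transducer of BMP signals (chr8:79498658-79499050), had 88.5, 80.7, 90.1 and 79.8, and the groups again overlapped. The member 12.7 kb from Tmem131l (chr3:83885043-83885554) had 95.2, 96.6, 92.5 and 79.1, with both monoculture percentiles above both co-culture percentiles. Its folds over background overlapped, at 13.6 and 14.1 in monoculture and 14.4 and 10.9 in co-culture. Others were 124 kb from Gfra2, 3.90 kb from Mtus1 and 150.3 kb from Crygf. Inside genes, the rest of the 20 lay in Neb, Ankfy1 (an endosomal Rab5 effector), Bcl2, Megf10 (an engulfment receptor, on chromosome 18), Ints4, Ksr2, 1700011L22Rik and the non-coding gene Gm12059. In Bcl2, which blocks apoptosis, the member (chr1:106581732-106582414, 132.3 kb downstream of a start) had percentiles of 86.5, 83.7, 87.3 and 75.7, and the groups overlapped.

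**Figure D4:**
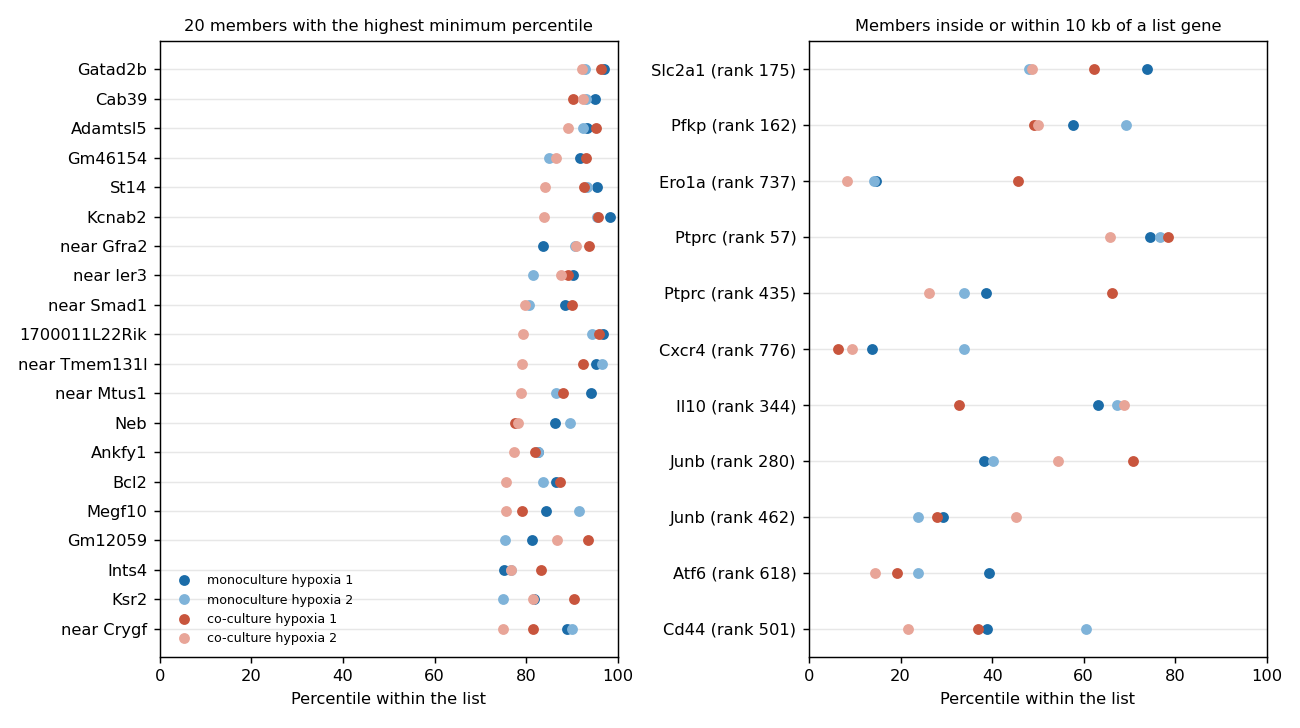
Percentiles within the list (x axis) of the 20 members with the highest lowest percentile (left) and of the 11 members inside or within 10 kb of a gene of the pathway lists (right), 1 point per hypoxic library. The first of the 20 strongest has 92.2 or more in every library, while those at pathway genes lie between 6.34 and 78.5.

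At the pathway genes, members were few. Of 189 genes in 8 lists, 170 had any region inside or within 10 kb, and 9 of these (5.29%) had a member, against 4.47% of all 15209 protein-coding genes with a region and 3.87% of genes of any kind. That share is near the background. None of the 21 genes of oxygen sensing and HIF feedback (among them Hif1a, Vhl, Egln1 and Egln3) and none of 20 interferon and antigen presentation genes with a region had a member. The other lists gave 2 of 23 for glycolysis and glucose uptake, 1 of 25 for secreted and stress HIF targets, 1 of 21 for microglia and macrophage genes, 3 of 28 for inflammation and AP-1, 1 of 19 for the unfolded protein response and 1 of 13 for glioma and glial genes. A gene with many regions has more chances to hold a member.

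Among glycolysis genes, the member 2.86 kb upstream of a start of Slc2a1, the main glucose transporter of glycolytic cells (chr4:119105692-119106084), had 56 and 49 fragments in monoculture and 63 and 50 in co-culture hypoxia. Its percentiles were 73.8, 48.1, 62.2 and 48.7, so the replicates within each culture differed by more than the means of the cultures. The 4 summits lay within 8 bp, and a region with a normoxic peak stood 2.35 kb away. The member in Pfkp, the platelet-type phosphofructokinase (chr13:6633518-6633900, 15.1 kb downstream of a start), had percentiles of 57.7 and 69.3 in monoculture and 49.1 and 50.1 in co-culture. Here both monoculture percentiles were higher, whereas the folds over background overlapped, at 5.18 and 5.55 in monoculture and 5.16 and 5.64 in co-culture. Each of these genes also had 2 regions called in all 8 libraries.

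The member 0.052 kb beyond Ero1a, an endoplasmic reticulum oxidase that HIF induces (chr14:45281587-45283035), overlapped an end of the neighbouring gene Gpr137c and was weak. Its percentiles were 14.6 and 14.2 in monoculture and 45.7 and 8.19 in co-culture, with only co-culture replicate 1 high. Its 4 summits spread over 626 bp. In the stress-response list, the member in Atf6, a sensor of unfolded protein in the endoplasmic reticulum (chr1:170732237-170732992), had percentiles of 39.3 and 23.8 in monoculture and 19.3 and 14.4 in co-culture. Both co-culture values were lower.

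Ptprc, which encodes the leukocyte antigen CD45, held 2 members. The one 16.0 kb downstream of a start (chr1:138158491-138159312) had percentiles of 74.5, 76.7, 78.5 and 65.8 and 44, 50, 52 and 37 fragments. The cultures overlapped. The other, 94.6 kb downstream (chr1:138080403-138081003), had 38.7, 33.9, 66.3 and 26.3, with the highest value in co-culture replicate 1 and the lowest in replicate 2. The gene had 5 regions in all, 2 of them called in all 8 libraries.

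In the inflammation and AP-1 list, Junb, a Jun-family partner in AP-1, had 2 members upstream of its start and no region called in all 8 libraries. The nearer, 1.25 kb upstream (chr8:84979579-84980218), had percentiles of 38.2 and 40.2 in monoculture and 70.7 and 54.4 in co-culture, so that both co-culture percentiles were higher. Its folds over background did not share that order, at 3.84 and 3.90 in monoculture and 3.92 and 3.49 in co-culture. The farther, 7.13 kb upstream (chr8:84985394-84986425), had 29.2, 23.8, 28.0 and 45.3, and the cultures overlapped. The member 0.846 kb from Il10, the anti-inflammatory cytokine (chr1:131025816-131026178), had 63.0, 67.3, 32.9 and 68.8, with co-culture replicate 1 apart from the other 3. The member 7.52 kb from Cxcr4, the receptor of CXCL12 (chr1:128580197-128580676), was weak, at 13.8, 33.8, 6.34 and 9.32, from 11 to 22 fragments. The glioma list gave 1 member in Cd44, a hyaluronan receptor that leukocytes carry too (chr2:102815244-102815785), with 38.8, 60.5, 36.8 and 21.6.

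Only Meis1, a homeobox transcription factor gene, had 3 members inside it or within 10 kb; 30 protein-coding genes had 2 and 649 had 1. The Meis1 members lay 91.4, 113.9 and 141.0 kb downstream of a start. The one at 113.9 kb (chr11:18904971-18905692) had percentiles of 53.7 and 77.6 in monoculture and 58.9 and 15.7 in co-culture. The one at 91.4 kb had 39.1, 12.4, 21.9 and 30.6, and that at 141.0 kb, which lies beyond the gene and overlaps promoter windows of the non-coding gene 8430419K02Rik, had 1.88, 15.4, 6.87 and 13.0. None was higher in both replicates of one culture than in both of the other.

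Among members overlapping an end or promoter of a protein-coding gene, the strongest was at Inpp5k, an inositol phosphate phosphatase (chr11:75630551-75631169). Its percentiles were 72.8 and 72.4 in monoculture and 95.4 and 94.0 in co-culture hypoxia, from 33, 34, 90 and 85 fragments. Both co-culture values were higher by over 20 percentile points. At Gng7, a G protein gamma subunit (chr10:81014881-81015334), the values were 73.9 and 62.0 against 93.7 and 95.5. At Grn, which encodes the lysosomal and secreted protein progranulin that microglia make in quantity (chr11:102430183-102430574), they were 56.6 and 51.3 against 92.1 and 84.8. Co-culture was above monoculture in both replicates at Sarm1, Gpn1, Arhgef1 and Rpl41 as well. At Fam71f1 and Zfp827 the cultures overlapped.

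That order was less frequent over all members. Both co-culture percentiles exceeded both monoculture percentiles at 134 members (15.8%), against 30.6% of the 14383 regions called in all 4 hypoxic libraries; the opposite order held at 252 members (29.7%), against 28.8%. Position moved with these shares. At gene ends, 40 of 122 members (32.8%) were higher in co-culture, against 49.3% of such regions, and away from gene ends 94 of 727 (12.9%), against 13.9%. The opposite order held at 19 of 122 (15.6%), against 15.7%, and at 233 of 727 (32.0%), against 40.5%. Co-culture hypoxia replicate 2, whose members rank low, enters each of these counts.

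The 45 members that overlapped a promoter window overlapped 53 windows of 48 genes, 0.464% of the 11412 windows that any region overlapped. A hypoxia response element core, ACGTG or GCGTG on either strand, was in 37 of the 53 (69.8%; exact 95% binomial interval 55.7% to 81.7%). The same share was 64.3% for windows overlapped by any region, 66.2% for regions called in all 8 libraries and 44.0% for all 32619 windows. The members' share for either core is close to that of other open promoters. The 2 cores differed, however. ACGTG was in 45.3% of member windows against 27.3% for any region, and GCGTG in 37.7% against 52.5%.

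The AP-1 motif TGANTCA was in 10 of the 53 windows (18.9%), against 5.57% for any region, 5.09% for regions called in all 8 libraries, 4.81% for the regions called only in co-culture and 7.85% of all windows. The E-box CACGTG, which contains ACGTG, was in 13.2% against 10.4%. GGGCGG, bound by SP and KLF factors, was in 52.8% against 63.9%, GGAATG, bound by TEAD factors, in 18.9% against 11.5%, and a CTCF motif in 9.43% against 3.00%. Some windows of a member overlap each other, for instance at Klhl22, at Atr and at 8430419K02Rik, whose 3 windows hold the CTCF motif. With only the 1 window per region whose start was nearest, an alternative chosen after seeing the data, ACGTG was in 42.2% of 45 against 27.1%, TGANTCA in 9 of 45 against 6.01%, and the CTCF motif in 3 of 45 (6.67%) against 3.11%.

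Base composition moved with these shares. The median ratio of observed to expected CpG was 0.593 in member windows and 0.783 in windows of any region, and it exceeded 0.6 in 24 of 53 (45.3%) against 73.8%. The median GC content was 58% against 61%. GCGTG and GGGCGG hold a CpG or are rich in G and C, and ACGTG holds a CpG too. The part of base composition in the motif shares was not tested.

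**Figure D5:**
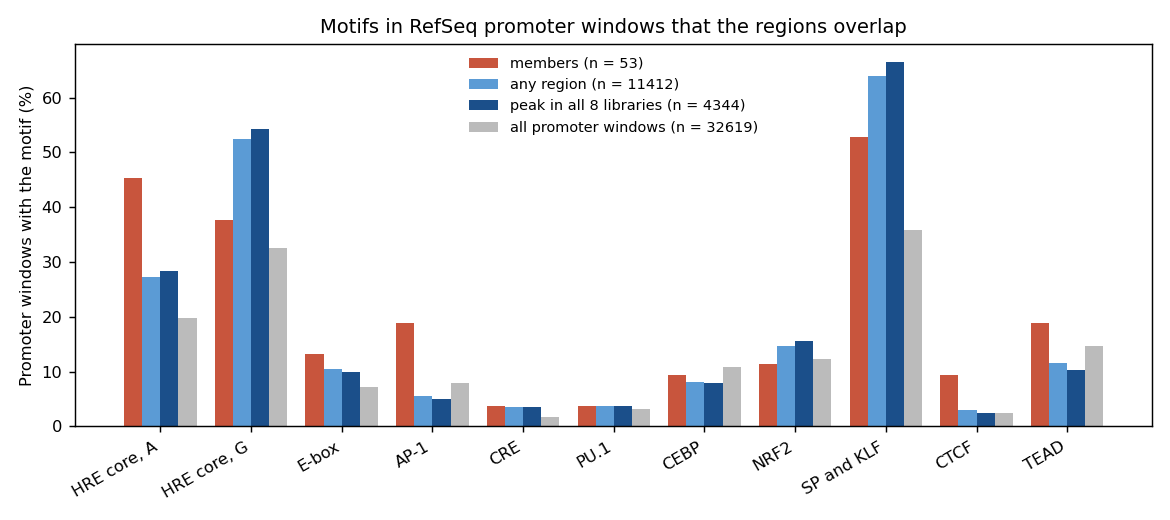
Share of RefSeq promoter windows (%) that hold each of 11 motifs on either strand, for windows overlapped by members (n = 53), by any region, by regions called in all 8 libraries, and for all windows. Members stand above the windows of any region for the ACGTG core (HRE core, A; 45.3% against 27.3%) and AP-1 (18.9% against 5.57%), and below them for the GCGTG core (HRE core, G; 37.7% against 52.5%).

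Outside the members, the share of open promoters with a core differed between oxygen levels by less than the spread between replicates. With member regions left out, ACGTG or GCGTG was in 67.5% ± 1.34 (SD, n = 2) of promoter windows with a peak in normoxic monoculture and 66.9% ± 0.202 (SD, n = 2) in hypoxic monoculture. In co-culture the shares were 66.9% ± 0.640 in normoxia and 66.9% ± 0.485 in hypoxia (SD, n = 2 each). The groups overlapped in both cultures. The difference, hypoxia minus normoxia, was −0.303 percentage points, less than the pooled SD of 0.789 (two-sided exact permutation over the 36 relabellings within culture, p = 0.722, smallest possible 0.0556). Its sign turned in equal-number lists (0.585 points) and without monoculture normoxia replicate 1 (0.165 points). The difference between the cultures in that effect was 0.590 points (exact permutation test, p = 0.778).

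The threshold of the rule passed through a continuum. Of the 14383 regions called in all 4 hypoxic libraries, 849 had no normoxic call (5.9%), 1156 had 1, 2547 had 2, 3459 had 3 and 6372 had all 4. The single normoxic call was in co-culture normoxia replicate 1 in 551 and replicate 2 in 426, and in monoculture normoxia replicate 1 in 129 and replicate 2 in 50. A further 1660 regions had no normoxic call and lacked just 1 hypoxic library, which was co-culture hypoxia replicate 2 in 966. Just inside, the members with the lowest −log10 q lay in F630040K05Rik (2.54, in co-culture hypoxia replicate 2), Ptpra (2.60, in monoculture hypoxia replicate 1), Gm17820 (2.70), Sgpp1 (2.70) and Ptges (2.72), the last the gene of an inducible prostaglandin E synthase. Just outside, the weakest single normoxic peaks had a −log10 q of 2.27 for a region 46.0 kb from a gene end, nearest to Uchl5, 2.35 beside Sgk3, 2.48 in Tafa3, 2.55 in Il6ra and 2.55 in a region 75371 bp wide over Srp54b and its neighbours. At Il6ra the 4 hypoxic peaks had values of 20.6 to 39.2, far above its normoxic one.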

How the data were processed

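ATAC-seq was done on 8 BV2 libraries, 2 per group. Per the submitters' processing notes, Trimmomatic 0.36, HISAT2 2.1.0, Picard, SAMtools, deepTools and MACS2 2.1.1.2 were used and the build was mm10; parameters are not given in the sources used here. The authors deposited 1 narrowPeak list per library. Each deposited peak has a score, a fold enrichment over that library's background, a −log10 p-value, a −log10 q-value and a summit offset in bp (another whole number, counted from the peak start). Percentiles were ranked within each list and then compared between lists, which differ in length. Folds, p-values and q-values were taken as deposited. Fragment numbers solved from folds and p-values were scaled between lists, to estimate detectability.

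Overlapping peaks (1 bp) were merged. Peaks on other chromosomes, 5 to 11 per list, were left out. Fold and −log10 p were solved for the fragments at the summit and in the background (Poisson). For 99.8% to 99.9% of peaks this returned the deposited −log10 p within a tolerance of 0.001, widened in proportion at high −log10 p. The commonest background value was the coverage of the library, and read totals were not used here. Solving and merging were tested on simulated data. Intervals cover counting error only.

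Genes came from a RefSeq table of GRCm38.p6 (49550 genes), without strand; distances to a start came from the promoter table (26794 genes), which covers 79.9% of protein-coding genes and none on chromosome 18, where 31 members lie. Without a genome, the share of hypoxia response elements was counted in promoter windows in place of windows around summits. Of the 15 motifs searched on both strands, 8 are described here, as the share of member windows and of windows of any region: CRE (TGACGTCA, 3.77% and 3.49%), ATF4 composite (TGATGNAA, 1.89% and 2.33%), PU.1 (GAGGAAGT, 3.77% and 3.69%), CEBP (TTGCNNAA, 9.43% and 8.11%), RUNX (TGTGGTT, 1.89% and 3.94%), IRF (3.77% and 3.11%), NRF2 (TGACNNNGC, 11.3% and 14.7%) and NF-kappaB (0 of 53 and 0.421%).

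Members and lists were chosen with earlier results of these data known. The text names the 20 members with the highest lowest percentile, all within 10 kb of a list gene, the 10 strongest at ends or promoters of protein-coding genes, genes with 3 or more members, and 5 regions on each side of the threshold. Of these, 1 is not reported here. Other members named were chosen after their values were seen. Replicate numbers from the labels were not taken to pair libraries. Python 3.11.15, numpy 2.4.6, pandas 2.3.3, scipy 1.17.1 and matplotlib 3.10.9 were used.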

Additional observations from a re-analysis of the deposited data

How the results depend on the processing

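The number of members depended most on list length and on single libraries. With each list reduced to its 9903 strongest peaks, 212 of 19780 regions (1.07%) met the rule; 11.3% of these lay at gene ends, and 50.0% of their 14 promoter windows held a hypoxia response element core. Leaving out 1 library gave 899 to 1815 members, with 1815 without co-culture hypoxia replicate 2, 1402 without co-culture normoxia replicate 1 and 1276 without co-culture normoxia replicate 2. Fewer libraries make the rule easier to meet. A −log10 q of at least 3 (861), peaks over at least 50% of a region (931) and summit windows (862) moved it less. So did no region with a normoxic peak within 500 bp (837) and no peaks wider than 10 kb (849).

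The share at gene ends was 12.6% to 21.3% when 1 library was left out, highest without co-culture normoxia replicate 2, and 18.8% when peaks had to cover 50% of a region. It was 7.66% within 200 bp and 33.9% within 5 kb, where all regions had 24.6% and 48.6%. The share of promoter windows with a core was 57.8% to 71.9% when 1 library was left out. The median percentile difference between cultures stayed below 0 under all alternatives run, from −10.6 to −0.720 when 1 library was left out, and no exact permutation p passed 0.05, which that design cannot reach.

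The hypoxia minus normoxia difference in promoters outside the members changed sign, to 0.585 points in equal-number lists and to 0.165 without monoculture normoxia replicate 1, in a range of −0.787 to 0.165 when 1 library was left out; the cause was not tested. With the replicate number as a block, it was −0.303 (exact permutation p = 0.625, smallest possible 0.125), and the median percentile difference was −3.52 (exact permutation p = 1, smallest possible 0.5). The block changed no call. Not run, since no genome was used here, were windows of 100 bp around summits, whole regions and peaks away from gene ends for the core shares. The margin between needed and predicted fragments at the members was narrowest in monoculture normoxia, with medians of 8 or 9 needed and 12.5 to 19.2 predicted.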

Other observations

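The members with the largest culture order were looked up after their values were seen. Higher in co-culture hypoxia, the first was a member 0.603 kb from Copz2, a coatomer subunit gene (chr11:96861806-96862275), with percentiles of 21.3 and 16.6 in monoculture and 78.3 and 80.9 in co-culture. Next came a member 4.55 kb from Ahnak (12.1 and 4.57 against 57.1 and 62.9) and the Natd1 promoter with the overlapping CACGTG and TGACTCA (23.9 and 31.5 against 78.7 and 74.0). A member 67.7 kb from Abca1, the cholesterol efflux transporter, had 13.3 and 8.63 against 64.1 and 51.4. Higher in monoculture, a member 9.83 kb from Prdm13 had 52.6 and 57.9 against 10.7 and 5.36. A member 2.87 kb from Ripk2, the kinase downstream of the NOD receptors (chr4:16119219-16119867), had 84.0 and 75.1 against 23.3 and 42.2. Members 4.54 kb from Rbl2 and inside Myo10 had the same order. Of the 8 largest in each direction, these are examples, and picking extremes out of 849 exaggerates their size.

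Further members at promoters and gene ends were named after their values were seen and stand for no group. At Nlrp3, the inflammasome sensor, a member covered the start, with percentiles of 49.6 and 38.2 in monoculture and 31.7 and 28.3 in co-culture, and both monoculture values were higher. At an end of Cd80, a costimulatory ligand, the values were 35.1, 63.0, 51.8 and 32.2, and the cultures overlapped. The non-coding gene Junos had a member at a start (chr4:95094813) with TGANTCA in its window. The percentiles of this member were 33.0 and 62.7 in monoculture and 38.1 and 24.2 in co-culture. The promoter of Pml held ACGTG and one of the weakest members, at 1.64, 12.4, 19.1 and 9.55.

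Of 323 RefSeq microRNA hairpins within 5 kb of any region, 5 (1.55%) were within 5 kb of a member, 4 members in all. The rule took 2.08% of all regions, and 3.87% of genes of any kind with a region within 10 kb had a member, so hairpins do not stand out. The strongest was 1.38 kb from Mir199a-2, within Dnm3 (chr1:162215443-162216431), with percentiles of 85.0 and 69.7 in monoculture and 90.1 and 67.1 in co-culture, where the replicates differed more than the cultures. Others were 4.35 kb from Mir129-2, which overlaps Mir129b, 1.81 kb from Mir499 in Myh7b, and 0.683 kb from Gm51288. What these members regulate, if anything, was not measured here.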
